A study of Mus musculus with 4 samples.

Results

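Fibroblast growth factor (FGF) signalling was described through 9 genes, namely the ligand genes Fgf2, Fgf7 and Fgf10, the receptor genes Fgfr1, Fgfr2 and Fgfr3, and the Sprouty genes Spry1, Spry2 and Spry4. They were taken by symbol, as the probe sets that the platform annotation assigns to exactly 1 of these names. All 9 were measured, by 18 of the 45141 probe sets, among 17097 named genes. Where a gene had several probe sets, the brightest by its mean over the arrays stands for it, and the others are given beside it.

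The samples were mouse mammary gland cells collected 3 days after transplantation, measured on microarrays that report RNA as log2 expression per probe set. In the group called BC alone, 10000 BC cells had been transplanted, the multipotent condition of the labels. In the control group, called the mixture here, 8000 LC cells had been transplanted together with 2000 BC cells, the unipotent condition. Each group had 2 arrays, and the RNA of each array came from 50 sorted cells. The labels leave BC and LC unexplained; in work on this tissue the letters commonly stand for basal and luminal cells. No label states the mouse strain or age, the gate of the sort, the host, or which animals gave which array. Presence of LC cells and a lower number of BC cells go together in the mixture and cannot be told apart. Since separate animals are not stated, p-values describe the spread between these arrays alone, and that spread may be technical.

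FGF ligands are secreted proteins that bind receptor tyrosine kinases together with heparan sulfate chains on the cell surface. The bound receptor signals through the adaptor FRS2 and the RAS and MAP kinase cascade, which switches on genes such as Etv4, Etv5 and Dusp6, and Sprouty proteins, themselves made in response, dampen that cascade. In the mammary gland FGF7 and FGF10 are classically made by stroma and act on an epithelial splice form of FGFR2, which the gland needs to form and branch, while FGF2 is widely used to grow mammary cells in culture.

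Control replicate 2 stood apart from the other 3 arrays. Over all probe sets its values had an SD of 1.44 against 1.90 to 1.92, and it correlated with the others at a Pearson r of 0.915 to 0.919, against 0.968 to 0.972 among those 3. Basal mammary markers, which would identify BC cells if these are basal, were high on 3 arrays and low on this one: the list's median was 9.12 to 9.28 on the 3 and 5.54 on control replicate 2. Differences that this array moves by much are therefore given without it too.

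Fgf2 was the one member that was clearly separated between the groups on every array. It had log2 values of 6.19 and 6.03 in BC alone and 3.89 and 3.99 in the mixture. Both BC alone arrays were high, both controls were low, and the arrays of a group were close to each other. Group means were 6.11 ± 0.11 and 3.94 ± 0.07 (SD, n = 2), a difference of 2.17 ± 0.30 on the log2 scale (SE), or 4.50-fold. The lower BC alone array was 2.04 above the higher control array, and a separation of at least 2 in that direction was found for 12 of 17097 genes, or 0.0702%. This measure was chosen after the values had been seen.

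In limma Fgf2 had an unadjusted p of 0.000497, number 6 from the smallest of all genes, and an adjusted p of 0.842, so it did not pass. The threshold of an adjusted p of 0.05 was passed by 0 of the 17097 genes, a background of 0%, with 680 genes, or 3.98%, at an unadjusted p under 0.05. When limma modelled the variance with a trend on intensity, 97 genes passed, or 0.567%, and Fgf2 was among them, at an adjusted p of 0.00110. With so few arrays the smallest p that an exact permutation test allows is 0.333. Fgf2 differed by 2.22 from control replicate 1 alone and by 2.12 from control replicate 2 alone.

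In both controls Fgf2 lay below the middle of its array, with 38.81% and 32.58% of probe sets at or below it, while in BC alone 76.33% and 74.59% were. No value was tested against background, so the fold may be too small. Fgf2 has 1 probe set with a single symbol, and no second one to set beside it.

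The other ligands did not share this pattern. Fgf7, keratinocyte growth factor, had 3.52 and 4.49 in BC alone and 4.91 and 4.29 in the mixture. The second BC alone array lay between the control arrays, so the groups overlapped. The difference was -0.60 ± 0.45 (SE; limma, adjusted p = 0.842), with a 95% interval from -1.73 to 0.54, and it was -0.11 without BC alone replicate 1 and -0.91 without control replicate 2. Fgf7 was the only member with a lower mean in BC alone.

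Fgf10, a ligand required for mammary bud formation, had 4.43 and 4.36 in BC alone and 3.81 and 4.37 in the mixture. Control replicate 2 was level with the BC alone arrays, and control replicate 1 was lower. The difference was 0.31 ± 0.34 (SE; limma, adjusted p = 0.842), with a 95% interval from -0.54 to 1.15, and it was 0.59 without control replicate 2. On these 4 arrays 28.54% to 59.86% of probe sets were at or below Fgf7 and 36.57% to 51.00% at or below Fgf10, and no level there was tested against background.

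**Figure D1:**
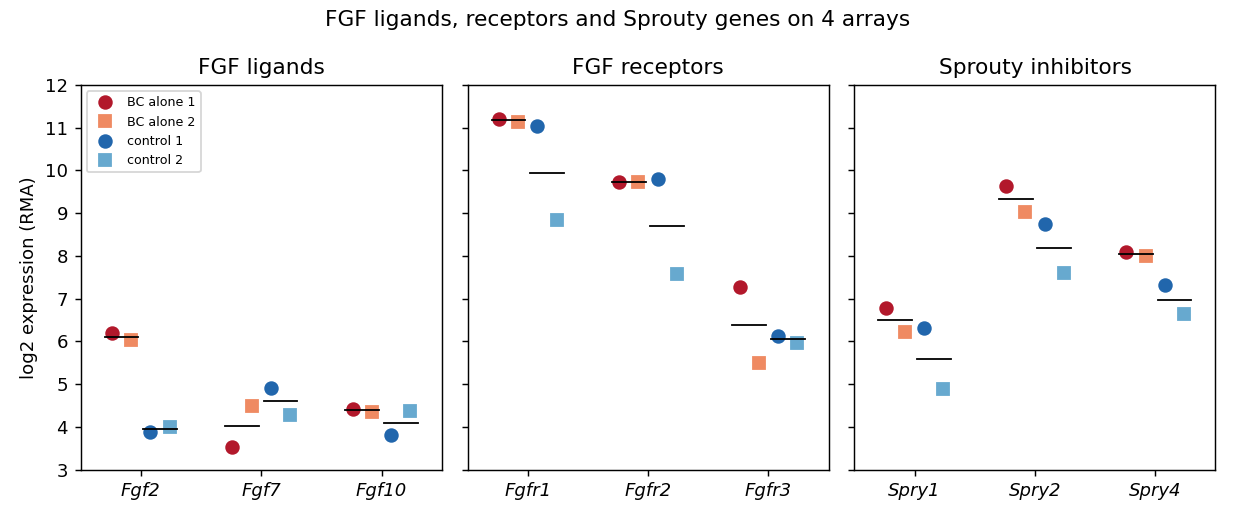
Log2 expression (vertical axis) of the 9 genes on each of the 4 arrays, in 3 panels by role, with a line at each group's mean of 2 arrays. Fgf2 has both BC alone arrays near 6 and both control arrays near 4, whereas Fgfr1 and Fgfr2 are set apart on control replicate 2 only; heights of different genes come from different probes and are not comparable.

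Fgfr1 and Fgfr2 were set apart on control replicate 2 rather than by group, and Fgfr3 varied mostly between the BC alone arrays. Fgfr1, the receptor expressed widely in mesenchyme and also in mammary epithelium, had 11.20 and 11.14 in BC alone and 11.04 and 8.84 in the mixture. Control replicate 2 was far below the other arrays, which were nearly level, at -2.20 against control replicate 1. The group difference was 1.23 ± 0.72 (SE; limma, adjusted p = 0.842), or 2.35-fold, and it was 0.13 without control replicate 2. The other Fgfr1 probe sets had 9.19, 9.04, 9.06 and 6.64, and 7.42, 7.29, 7.37 and 6.11, in the same order of arrays. Both repeated the drop on control replicate 2, at -2.42 and -1.26 against control replicate 1, and in both the groups overlapped.

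Fgfr2, the receptor of FGF7 and FGF10 in epithelium, had 9.72 on both BC alone arrays and 9.80 and 7.58 in the mixture. Control replicate 1 was the highest array and control replicate 2 the lowest, so the groups overlapped. The difference of 1.03 ± 0.73 (SE; limma, adjusted p = 0.842) turned to -0.08 without control replicate 2. A second probe set had 9.02, 9.35, 9.86 and 7.01. The dimmest one had 3.82 and 4.29 in BC alone and 5.24 and 4.51 in the mixture, a difference of -0.82 without overlap, opposite in sign to the others. All 3 were lower in BC alone than on control replicate 1, at -0.08, -0.68 and -1.19 from the brightest to the dimmest.

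Fgfr3, a receptor that restrains growth in cartilage, had 7.28 and 5.50 in BC alone and 6.13 and 5.96 in the mixture. The BC alone arrays were the highest and the lowest of the 4 and differed from each other by 1.78, while the control arrays differed by 0.17. The group difference of 0.35 ± 0.61 (SE; limma, adjusted p = 0.865) turned to -0.55 without BC alone replicate 1. A dimmer probe set had 5.28, 4.73, 4.66 and 5.10, and the groups overlapped there too. The annotation does not say which splice forms the receptor probe sets detect, so the epithelial and mesenchymal forms were not separated.

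The Sprouty genes had higher means in BC alone, and for Spry2 and Spry4 all probe sets but 1 were without overlap. Spry4 had 8.10 and 8.0 in BC alone and 7.32 and 6.63 in the mixture. Both BC alone arrays were above both controls, and control replicate 2 was the lowest. Means were 8.05 ± 0.07 and 6.98 ± 0.49 (SD, n = 2), a difference of 1.08 ± 0.36 (SE), or 2.11-fold (limma, unadjusted p = 0.0270, adjusted p = 0.842). The next probe set had 6.78 and 6.68 against 6.18 and 5.08, and the one after it had 5.84 and 5.91 against 5.55 and 5.39. The dimmest had 4.06 and 3.73 against 3.55 and 3.77 and overlapped. Against control replicate 1 alone the 4 probe sets were higher in BC alone by 0.73, 0.55, 0.33 and 0.35, from the brightest to the dimmest.

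Spry2, a Sprouty gene with a role in branching epithelia, had 9.64 and 9.02 in BC alone and 8.74 and 7.61 in the mixture. The order of groups was kept on every array, but the smallest gap, 0.28, was under the distance of 0.62 between the BC alone arrays. The difference was 1.16 ± 0.49 (SE; limma, adjusted p = 0.842), or 2.23-fold, with a 95% interval from -0.06 to 2.37, and it was 0.59 against control replicate 1 alone. The second Spry2 probe set had 9.04 and 9.13 against 8.80 and 7.38, again without overlap.

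Spry1 had 6.79 and 6.21 in BC alone and 6.32 and 4.88 in the mixture. Control replicate 1 lay between the BC alone arrays, and control replicate 2 was lower, at -1.44 against control replicate 1. The difference was 0.90 ± 0.55 (SE; limma, adjusted p = 0.842) and 0.18 without control replicate 2.

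**Figure D2:**
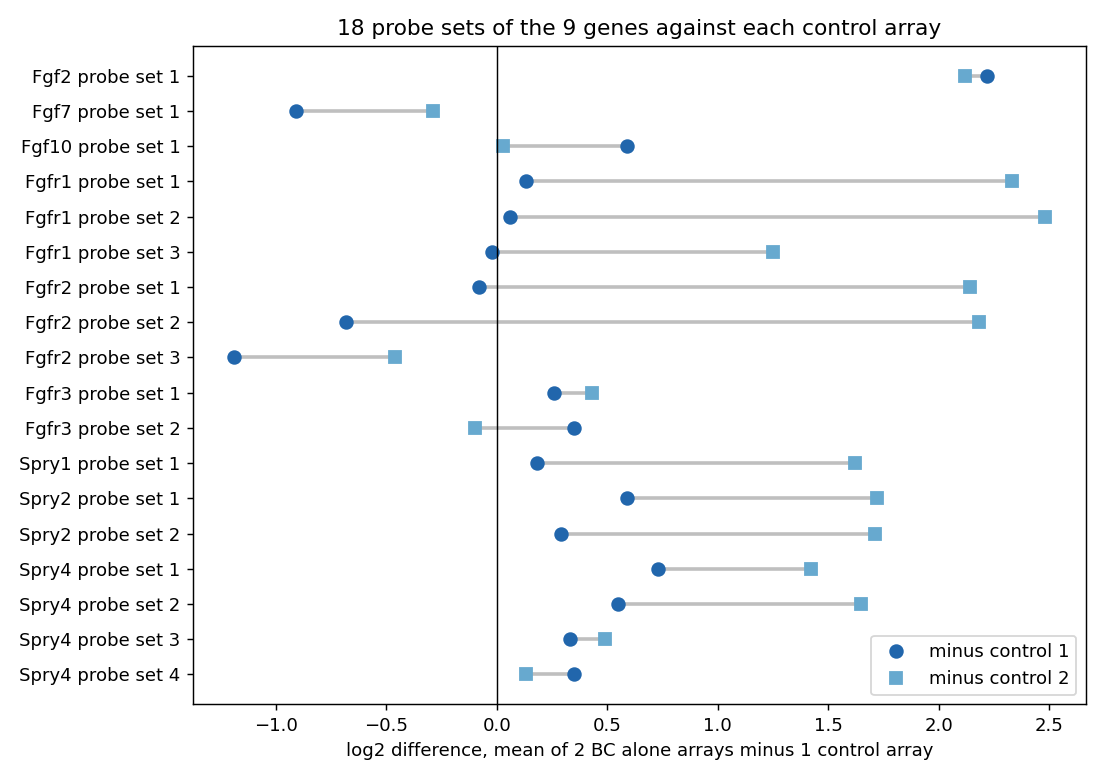
Log2 difference (horizontal axis) between the mean of the BC alone arrays and each control array, for the 18 probe sets of the 9 genes, numbered from the brightest to the dimmest within a gene. The points of Fgf2 lie together at 2.12 and 2.22, those of the brightest Fgfr1 probe set are far apart at 0.13 and 2.33, and all Spry probe sets are above 0 against both controls.

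Because values on control replicate 2 spanned a narrower range, the place of each gene within its own array was also read. Of all probe sets, 91.70% and 91.10% were at or below Spry4 in BC alone, and 86.84% and 87.94% in the mixture, so both controls were lower by rank as well. For Spry2 the shares were 97.57% and 95.81% against 94.87% and 95.55%, which leaves the BC alone arrays above both controls by a small margin. Spry1 had 56.61% on control replicate 2 against 76.63% to 82.13% on the other arrays. Fgfr1 had 98.72% there against 99.48% to 99.63%, and Fgfr2 had 95.43% against 97.73% to 97.98%.

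When the 4 arrays were put on a common distribution by quantile normalization, Spry4 differed by 0.56, Spry2 by 0.46, Fgfr1 by 0.57 and Fgfr2 by 0.34, and Fgf2 still by 2.17. Cyclic loess gave 0.53, 0.43, 0.29, 0.25 and 2.24 for the same genes in that order. Spry1, at 0.87 and 0.71, moved less than Spry2 and Spry4 did.

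**Figure D3:**
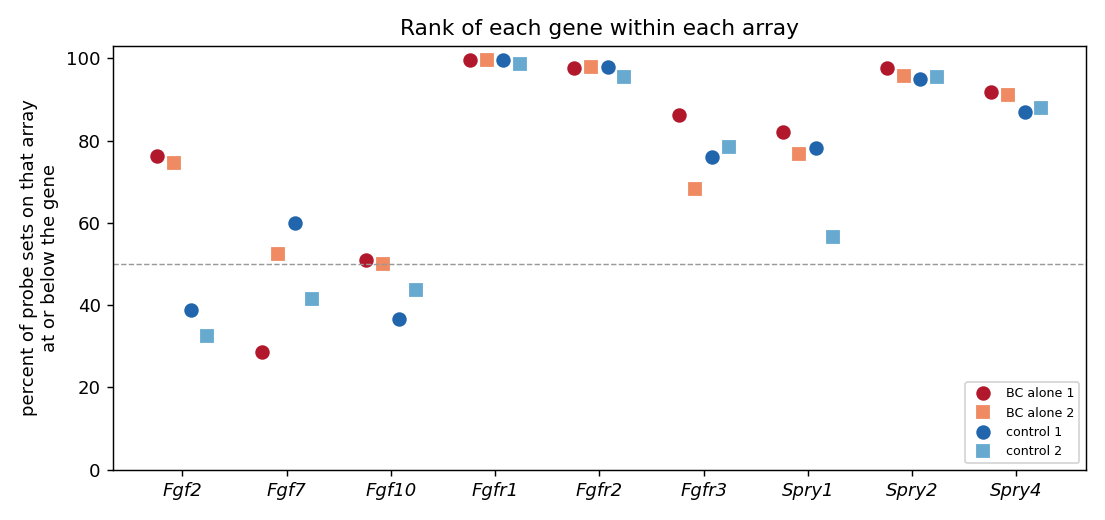
Percent of probe sets on the same array at or below each gene (vertical axis), by gene and array, with a dashed line at the middle of the array. Fgf2 is above the line in BC alone and below it in the mixture, and the ranks of Spry4 are also separated by group, at 91.10% and above against 87.94% and below.

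Counted over the 9 genes, 4 differed at least 2-fold without overlap between the groups, namely Fgf2, Fgfr1, Spry2 and Spry4, all higher in BC alone, against a background of 4.79% of all genes in that direction. Without control replicate 2 only Fgf2 met this, against a background of 2.19%. After quantile normalization or cyclic loess it was again Fgf2 alone. Without BC alone replicate 2 the count was 7, and it then included Fgf7 as lower, Fgfr3 and Spry1. The share of all genes was not computed for that setting or for the 2 rescalings. With a single BC alone array left, any gene separates more easily, so the 7 cannot be read as a trait of the members. A higher mean in BC alone was found for 8 of the 9, against 46.7% of all genes. The median difference of the 9 was 1.03, against -0.04 over all genes, and 0.26 against 0.01 without control replicate 2. Control replicate 2 was the lowest array for 5 of the 9, namely Fgfr1, Fgfr2 and the 3 Sprouty genes, against 34.1% of all genes. The members and all genes were not matched for brightness. A mean over the arrays above 4.46, the median over all probe sets, was found for 7 of the 9 and for 10454 of 17097 genes. The part of brightness in these shares was not tested.

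The sequences just before the start of Fgf2, Fgf7 and Spry2 are shown as the ligand with the clearest difference, the ligand with the opposite sign and a Sprouty gene without overlap. Each is the 250 bases that precede the gene's start in RefSeq, on build GRCm38.p6, written along the gene's own strand. Fgf2 is at chr3:37348403-37348652 on the plus strand, Fgf7 at chr2:126034408-126034657 on the plus strand and Spry2 at chr14:105896820-105897069 on the minus strand. Capitals mark matches, on either strand, to any of 5 motifs. The GC box was searched as GGGCGG and the AP-1 motif as TGANTCA. The ETS motif was searched as CCGGAAG and the TEAD motif as GGAATG. The TATA box was searched as TATAAA.
Fgf2: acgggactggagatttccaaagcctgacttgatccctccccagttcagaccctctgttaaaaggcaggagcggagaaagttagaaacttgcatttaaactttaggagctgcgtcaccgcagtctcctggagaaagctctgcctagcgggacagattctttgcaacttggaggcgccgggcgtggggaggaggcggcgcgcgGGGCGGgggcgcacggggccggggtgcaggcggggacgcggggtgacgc
Fgf7: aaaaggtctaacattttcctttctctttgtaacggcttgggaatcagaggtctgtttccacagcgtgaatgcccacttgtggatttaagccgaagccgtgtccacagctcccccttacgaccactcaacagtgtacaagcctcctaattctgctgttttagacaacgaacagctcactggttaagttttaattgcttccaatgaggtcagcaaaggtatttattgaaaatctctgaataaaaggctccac
Spry2: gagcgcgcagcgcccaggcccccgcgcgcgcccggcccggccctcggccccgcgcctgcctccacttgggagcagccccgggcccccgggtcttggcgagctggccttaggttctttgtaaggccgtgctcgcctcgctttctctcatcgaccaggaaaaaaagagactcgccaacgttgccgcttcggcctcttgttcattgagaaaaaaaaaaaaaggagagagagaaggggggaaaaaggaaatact
The Fgf2 stretch has 62.4% G or C and 20 CG dinucleotides, the Spry2 stretch has 62.4% and 23, and the Fgf7 stretch has 43.6% and 6. The medians over 32851 such stretches were 52.4% and 6. Fgf2 holds 1 GC box, from 49 to 44 bases before the start, and 32.7% of all stretches hold at least 1. The other 4 motifs have no match in these windows, and 6.75%, 6.91%, 12.6% and 12.4% of all stretches hold the AP-1, ETS, TEAD and TATA motifs. A match is a description of letters and not a site.

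Genes whose pattern over the 4 arrays was most like that of each separated member were found by distance, after centring each gene on its own mean. Nearest to Fgf2 were Igfbp6, a binding protein of insulin-like growth factors, at a distance of 0.17 on the log2 scale, Gucy1a1, a subunit of the nitric oxide receptor guanylate cyclase, at 0.25, and Flrt2, a membrane protein of a family that binds FGF receptors, at 0.27. Only 12 genes were within 0.5 of Fgf2. Within 0.5 of Fgfr1, Spry2 and Spry4 there were 534, 339 and 639 genes, so their patterns were common ones. The nearest to Fgfr1 were Prelid1, Atp6v1f and Hnrnpc, at 0.02 to 0.05. Those nearest to Spry2 were Smurf1, Rtf2 and Sdha, at 0.09 to 0.13, and those nearest to Spry4 were 1190007I07Rik, Lcor and Vps35l, at 0.05 to 0.08.

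The rest of the pathway was read through 6 lists with 96 genes, of which 82 were measured. In limma 0 of the 82 were higher and 0 lower at the threshold on adjusted p. An unadjusted p under 0.05 was found for 3 of the 82, against 3.98% of all genes. By size, 7 of the 82 were at least 2-fold higher in BC alone without overlap and 0 were lower, against backgrounds of 4.79% and 0.895% of all genes. The median difference of the 82 was 0.33, and 0.08 without control replicate 2, against -0.04 and 0.01 over all genes. A higher mean in BC alone was found for 54 of the 82, against 46.7% of all genes. That share, over all 4 arrays, also stands beside the counts of each list below. It was not computed without control replicate 2, so counts of higher means without that array have no background.

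Among the other Fgf genes, not all of which code for secreted ligands, 6 of 19 had a higher mean in BC alone and 13 a lower one. Their median was -0.17, or 0.10 without control replicate 2. Fgf1, which like Fgf2 lacks a classical secretion signal, stood out. It had 7.49 and 7.46 in BC alone and 6.01 and 6.15 in the mixture, with both BC alone arrays high and both controls low. The difference was 1.40 ± 0.29 (SE; limma, unadjusted p = 0.00405, adjusted p = 0.842), or 2.63-fold, and 1.47 without control replicate 2. The other genes of this list with the smallest p, Fgf12, Fgf18 and Fgf6, differed by -0.54, 0.47 and -0.48. Without control replicate 2 they differed by -0.53, 0.16 and -0.11. Apart from Fgf1, no gene of this list was 2-fold apart without overlap.

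Among other receptors and cofactors, 8 of 15 had a higher mean and 7 a lower one, with a median of 0.08. Flrt2 had 6.70 and 6.64 in BC alone and 4.75 on each control array. The groups were far apart, with a difference of 1.92 ± 0.29 (SE; limma, unadjusted p = 0.000843, adjusted p = 0.842). The related Flrt3 had 6.59 and 6.32 against 7.68 and 6.27, so the groups overlapped. Gpc6, a glypican that carries heparan sulfate, had 8.81 and 8.78 against 8.64 and 6.15, a difference of 1.40 that was 0.16 without control replicate 2. Sdc2, a syndecan, differed by 1.00 and Fgfrl1, a receptor without a kinase domain, by 0.80, or by 0.40 and 0.26 without that array.

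Genes that make or edit heparan sulfate all had a higher mean in BC alone, 10 of 10 measured, against 46.7% of all genes. Their median was 0.78. Without control replicate 2 it was 8 of 10, with a median of 0.19. Sulf1, a sulfatase that trims heparan sulfate and is known to dampen FGF2 signalling, had 8.68 and 8.56 in BC alone and 7.32 and 6.92 in the mixture. Both BC alone arrays were above both controls, with a difference of 1.50 ± 0.32 (SE; limma, unadjusted p = 0.00408, adjusted p = 0.842), and 1.30 without control replicate 2. Sulf2, the related sulfatase, had 8.68 and 9.0 against 9.15 and 6.73 and overlapped. Flrt3 and Sulf2 were chosen after their values were seen, as relatives of separated genes. Glce differed by 1.08, Extl3 by 0.65 and Ext2 by 0.94, or by 0.55, 0.51 and 0.15 without that array.

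Both BC alone arrays were at least 1 above both controls for Fgf2, Fgf1, Flrt2 and Sulf1, and for no other member or listed gene. Of all genes, 109 met this, or 0.638%. This count, too, was chosen after the values had been seen.

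The signal transduction genes had no member that was 2-fold apart without overlap. A higher mean was found for 12 of 16, with a median of 0.39, or 0.06 without control replicate 2. Shc1, Nras, Sos2 and Ptpn11 had the smallest p and differed by 0.74, 1.10, 0.43 and 0.55, or by 0.31, 0.14, 0.56 and 0.11 without that array.

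Other feedback inhibitors were divided, with 6 of 9 at a higher mean and a median of 0.15, turning to 3 of 9 and -0.19 without control replicate 2. Spred1, a Sprouty relative that blocks RAF activation, had 8.43 and 8.25 in BC alone and 8.02 and 6.26 in the mixture, a difference of 1.20, or 0.32 without that array. Nf1, which switches RAS off, differed by 0.81, Il17rd by -0.36 and Dusp4, a MAP kinase phosphatase, by -0.42, or by 0.52, -0.17 and -0.82 without that array. Dusp6, the phosphatase of ERK that is often read as a sign of FGF signalling, had 7.68 and 7.77 in BC alone and 8.12 and 6.10 in the mixture, with the BC alone arrays between the controls.

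Of the transcriptional targets, 12 of 13 had a higher mean, with a median of 0.63, but 8 of 13 and a median of 0.14 without control replicate 2. Etv5, an ETS factor induced by FGF, had 6.48 and 6.55 against 6.14 and 4.43, a difference of 1.23 ± 0.59 (SE; limma, adjusted p = 0.842), and 0.38 without that array. The related Etv4 had 5.07 and 3.94 against 4.02 and 4.48 and overlapped. Etv4 and Dusp6 were named for their use as readouts, after their values were seen. The immediate early gene Ier2 differed by 0.97, Ets1 by 0.90 and Phlda1 by 1.42, or by 0.33, 0.83 and 0.14 without control replicate 2.

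**Figure D4:**
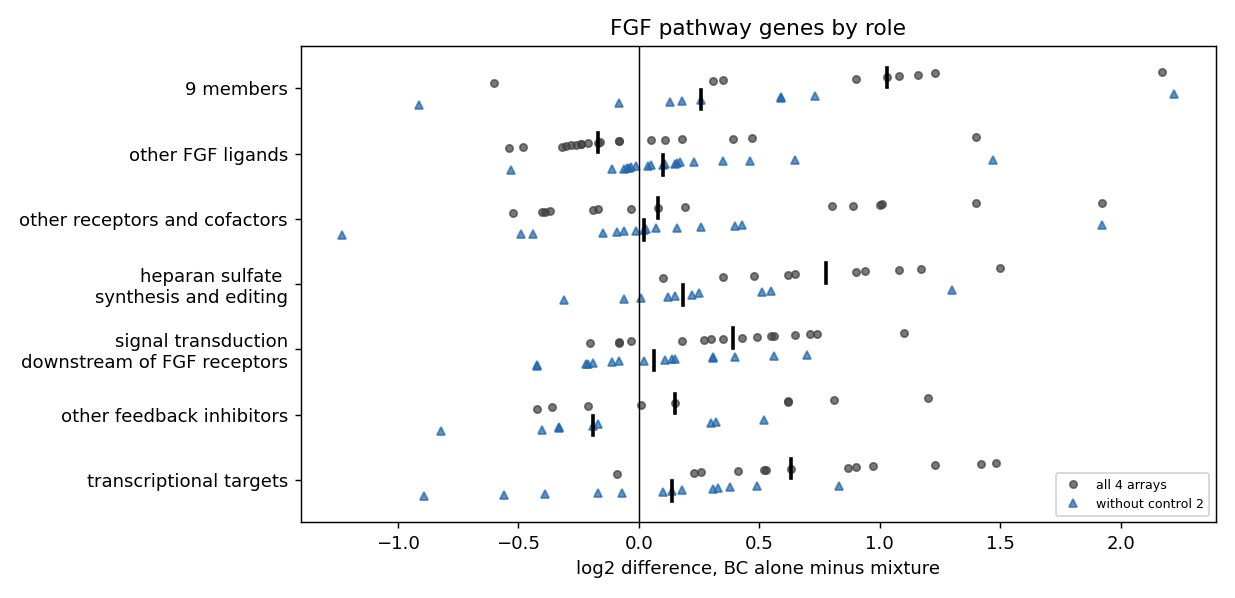
Log2 difference between BC alone and the mixture (horizontal axis) for the 9 genes and the measured genes of 6 pathway lists, with 1 point per gene and a bar at each median, over all 4 arrays (circles) and without control replicate 2 (triangles). The medians of heparan sulfate genes and transcriptional targets move from 0.78 and 0.63 to 0.19 and 0.14, while Fgf2 goes from 2.17 to 2.22.

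Markers of other cell types moved with some of these genes. In sorted cells measured in bulk, fewer cells of a type and less RNA per cell cannot be told apart. Marker levels were summed on the linear scale and are given as log2 of the sum. Pericyte markers summed to 9.95 and 9.12 in BC alone and 7.54 and 7.72 in the mixture, with 4 of 4 measured markers at a higher mean and 3 of 4 without overlap. Fibroblast markers summed to 12.85 and 13.03 against 12.17 and 10.81, with 11 of 14 at a higher mean and 9 without overlap. Endothelial markers summed to 9.83 and 9.67 against 9.18 and 8.98, with 10 of 10 at a higher mean and 5 without overlap. Without overlap in that direction were 16.8% of all genes, and at a higher mean 46.7%. Both shares are over all 4 arrays and were not computed without control replicate 2. Leaving out control replicate 2 left 7 of 10 endothelial markers at a higher mean, with a median difference of 0.53 against 0.28 over all arrays. For fibroblast markers it was 14 of 14, with a median of 0.70, which was smaller than over all arrays. For pericyte markers it was 4 of 4, with a median of 1.43 against 1.40.

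The sums of these 3 lists were higher on both BC alone arrays than on both controls, as were Fgf2, Fgf1, Flrt2 and Sulf1, and their part in those differences was not tested. The fibroblast sum also differed between the controls, by more than the gap between the groups. The fibroblast receptor Pdgfra was dim on all 4 arrays, at 3.57 to 4.06. Pdgfrb of the same list had 6.74 and 6.62 in BC alone and 6.20 and 7.37 in the mixture and overlapped. The largest differences of the fibroblast and pericyte lists were those of Thy1 and Rgs5. Thy1 had 8.65 and 8.39 in BC alone and 6.57 and 5.92 in the mixture, and Rgs5 had 8.41 and 7.78 against 4.45 and 5.75. Immune markers went the other way, with sums of 8.84 and 9.31 against 10.27 and 9.42, a higher mean for 2 of 10, and 5 lower without overlap, against 19.6% of all genes.

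Basal mammary markers summed to 12.84 and 12.53 in BC alone and to 12.88 and 9.26 in the mixture, with 9 of 10 at a higher mean and 1 without overlap. Leaving out control replicate 2 left 2 of 10 at a higher mean and a median difference of -0.28 against 1.39 over all arrays. Their split, 3 arrays high and control replicate 2 low, is that of Fgfr1 and Fgfr2, and its part in the receptor values was not tested. Luminal mammary markers summed to 11.82, 12.11, 11.93 and 10.87 in the same order of arrays, with 7 of 11 at a higher mean and 3 without overlap. The median of that list was instead highest on control replicate 2, at 7.36 against 6.48 to 6.90. Of its markers only Foxa1 and Cited1 were highest there, at 7.36 and 9.28. Krt8, Krt18, Krt19, Epcam, Gata3 and Pgr were lowest on that array. Krt18 had 7.78 there against 9.32 to 9.68 on the other arrays, and Epcam had 7.54 against 9.45 to 10.11. The list thus did not move in 1 direction on control replicate 2. Its markers without overlap were Krt8, Gata3 and Esr1. Esr1 had the largest difference of the list, 2.06, with 8.13 and 9.19 in BC alone and 6.48 and 6.72 in the mixture. Gata3 differed by 1.31.

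**Figure D5:**
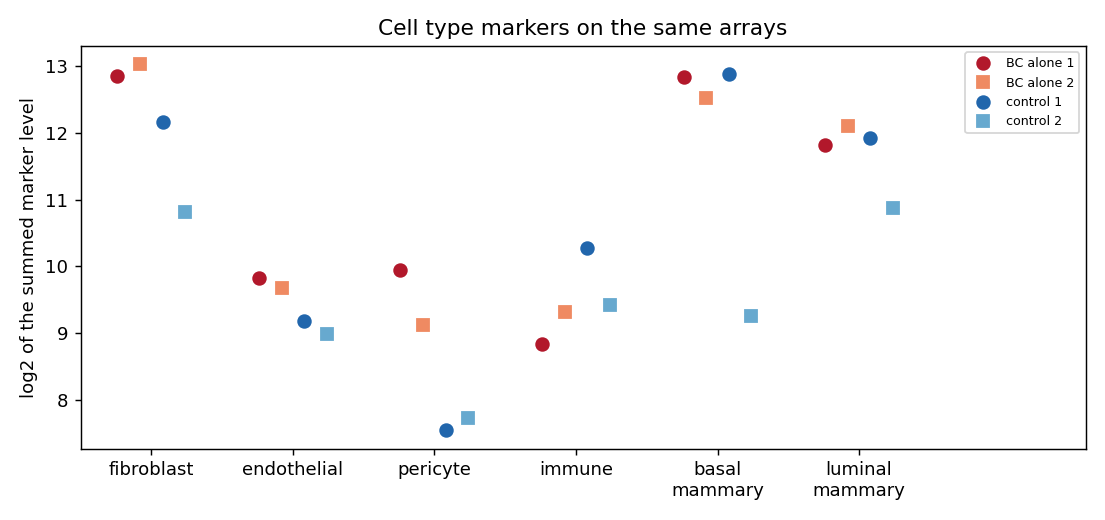
Log2 of the summed linear level (vertical axis) of 6 lists of cell type markers on each of the 4 arrays. Fibroblast, endothelial and pericyte markers are higher on both BC alone arrays than on both controls, and basal mammary markers are low on control replicate 2, at 9.26 against 12.53 to 12.88.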

How the data were processed

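The authors deposited log2 values, 1 for each probe set and array, made with RMA from the package affy. The source is the submitters' processing notes, without versions. Whether the 4 arrays were normalised together is not given in the sources used here. No array was a copy of another, with 220 to 771 identical values per pair of arrays among 45141 probe sets. The number of arrays limits the precision. Of 45141 probe sets the platform annotation gave 28898 1 symbol and 551 several, and did not name 15692. By Entrez identifier 28689 of the 28898 matched the RefSeq gene table of GRCm38.p6, which was also the source of the sequences, and 7 of the 9 genes had a sequence entry.

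The groups were compared with limma 3.58.1 (R 4.3.3) through lmFit and then eBayes, on all 17097 genes, two-sided, without filter, trend, robust weighting or block, and with Benjamini-Hochberg adjustment over all genes. The fit had 2 residual and 3.50 prior degrees of freedom. Folds are 2 to the power of log2 differences of RMA values, which compress large differences. The script was tested on simulated data.

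All 9 members are named, with up to 4 genes of the smallest p from each list, and the 3 nearest genes of each member at least 2-fold apart without overlap; exceptions are marked. The members, lists and marker lists were chosen with earlier results of these data known. Alternatives were other scalings, the mean of probe sets, a filter on dim genes, other variance models, a replicate block and leaving out each array.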

Additional observations from a re-analysis of the deposited data

How the results depend on the processing

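The count of members at least 2-fold apart without overlap was 4, and 2 when probe sets of a gene were averaged (Fgf2 and Spry2), 1 after quantile normalization, 1 after cyclic loess and, leaving out each array in turn, 1 to 7. The lowest was without control replicate 2 and the highest without BC alone replicate 2. Shares of all genes were computed only for the main count and for the one without control replicate 2. It was 4 after median centring and without the dimmer genes, a filter that removed Fgf7 and Fgf10. Leaving out 1 array, Fgfr2 ran from -0.08 (without control replicate 2) to 2.14, and Fgfr3 from -0.55 (without BC alone replicate 1) to 1.24; the cause of the turned signs was not tested. All other member values kept their sign under these alternatives, but not their size: Fgfr1 ran from 0.13 to 2.33. Fgf2 ran from 2.09 to 2.30. Genes past an adjusted p of 0.05 in limma numbered 0, and 97 with an intensity trend, 0 with robust variance and 0 whichever array was left out. With the replicate number of the labels as a block 108 passed, Fgf2 among them at an adjusted p of 0.00979, while the 8 other members did not. No label states that equal numbers pair the samples, so they were not taken to do so. Deviations of same-numbered arrays from their group means had r = -0.02 over genes, which are not independent replicates. That value cannot decide on pairing, because control replicate 2 stood apart from all other arrays.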
